A study of Bos taurus with 96 samples.

Results

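Slow and fast skeletal myofibres are told apart by which isoform of each contractile protein they carry, and 10 such isoform genes were followed over the longissimus dorsi (LD) muscle and the intramuscular fat (IMF) of beef steers. The slow isoforms were MYH7, MYL2, TNNT1, TNNI1 and TNNC1, and the fast isoforms were MYH1, MYH2, MYL1, TNNT3 and TNNI2. The genes were chosen by name from textbook fibre type assignments, and their probes on a bovine 1-colour Agilent array were found through the RefSeq accession of the probe or the study's own probe tables. Of the 10 genes, 8 had a probe, 4 slow and 4 fast, out of 11864 genes that could be named on the array. No probe was matched to TNNI1 or TNNI2, so the troponin I pair is not described. The 8 genes had 33 probes, of which 25 were among the 34227 probes tested, and 1 of these 25 could not be assigned to MYH1 rather than MYH2. It was counted with the fast probes, which gave 11 slow and 14 fast probes.

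A myofibre shortens when the heads of its myosin heavy chains pull on actin, and each heavy chain binds 1 regulatory and 1 essential light chain. Calcium starts the cycle by binding troponin C, and troponin T fixes the troponin complex to tropomyosin on the thin filament. Slow fibres use the beta heavy chain and rely mostly on oxidative metabolism, whereas fast fibres use faster heavy chains and rely more on glycolysis. Longissimus is a mixed muscle in which fast fibres prevail. Intramuscular fat lies between its fibre bundles, so dissected IMF can carry muscle fibres with it, and muscle taken whole carries fat.

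The series held 96 arrays of steers of 3 breeds, ANGUS, HEREFORD and WAGYU_cross_ANGUS (called Angus, Hereford and Wagyu x here), 26 months old by the design text and with 259 feedlot days on every sample label. LD muscle gave 36 arrays: 8 pasture arrays (Pasture_Feeding) and 4 supplement arrays (Supplemental_Feeding) of each breed. IMF and 4 further fat depots (intermuscular, kidney, omental and subcutaneous rump fat) gave 12 arrays each, 4 of each breed, all labelled pasture. By the study's methods, the LD samples kept their fat in place, and part of them came from an earlier slaughter that the sample labels do not mark. Both feeding labels name the period just after weaning by these methods, and the feedlot time of the fat depot steers came later. Arrays of different tissues can come from 1 steer, and nothing in the labels ties them together, so they were fitted as independent. All values are log2 processed signals relative to the 75th percentile of the same array, so a level of 0 is that percentile and a difference of 1 is a doubling. Each gene is described by its brightest probe, the one with the highest mean over the 36 LD arrays. In bulk tissue, fewer cells of a type and less RNA per cell cannot be told apart.

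On every LD array 66.3 to 81.1% of probes were well above background, and on IMF arrays 76.6 to 92.0%. No spot was saturated. The 10 adipocyte markers checked, ADIPOQ and PLIN1 among them, summed to 7.52 to 9.57 on IMF arrays and to 3.05 to 6.75 on LD arrays, and 9 or 10 of them were well above background on every LD array. Each of the 3 supplement groups filled a slide of its own. Slides were scanned on 3 days, and breed was unevenly spread over them: all supplement Angus arrays were scanned on the second day and all supplement Hereford and Wagyu x arrays on the first. Counts of calls for breed and diet are therefore given with and without scan day. The labels do not mark which arrays come from separate steers, and p-values measure the spread between these arrays.

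Of the 25 isoform probes, 24 were well above background on all 36 LD arrays, and the other, a dimmer MYH7 probe, on the 35 on which it was measured, since 1 supplement array had its spot marked as an outlier. All 25 were well above background on the 12 IMF arrays. Among the slow isoforms, MYH7 is the beta myosin heavy chain, MYL2 the regulatory light chain, TNNC1 the calcium sensor of slow and cardiac muscle, and TNNT1 the slow troponin T. Among the fast isoforms, MYH2 is the heavy chain of fast oxidative fibres, MYH1 that of fast glycolytic fibres, MYL1 the essential light chain, and TNNT3 the fast troponin T. How bright a probe is depends on how well it binds as well as on the transcript, so the levels of the 8 genes give no order of their transcripts.

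The first comparison set supplement against pasture feeding in LD. The earlier slaughter held both feedings by the methods, and the labels do not mark it, so slaughter could not be separated from feeding. MYH7 lay between 8.18 and 9.17 (median 8.98) on the 12 supplement arrays and between 8.38 and 9.12 (median 8.76) on the 24 pasture arrays. The groups overlapped almost entirely, and the difference, supplement minus pasture with breed in the model, was 0.087 ± 0.067 (SE) with a limma adjusted p of 0.42. Of the other slow isoforms, MYL2 ran from 8.68 to 9.13 (median 8.99) with supplement and from 8.69 to 9.31 (median 8.81) on pasture, with a difference of 0.075 ± 0.049 (adjusted p = 0.334). TNNT1, which anchors the slow troponin complex, ran from 7.03 to 7.88 (median 7.50) and from 6.92 to 7.70 (median 7.30). Its difference was 0.15 ± 0.083 (adjusted p = 0.239), and neither gene passed the threshold of 0.05. With scan day as a block MYH7 differed by 0.027 ± 0.061 and MYL2 by 0.030 ± 0.052. The TNNT1 difference was larger there, at 0.25 ± 0.084 (adjusted p = 0.0539), and it was 0.24 (adjusted p = 0.0637) on the arrays that shared a scan day.

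TNNC1 was the single isoform that passed the diet test with breed in the model. Its 4 supplement arrays read 9.07, 9.04, 8.96 and 9.13 in Angus, 9.45, 9.43, 9.61 and 9.36 in Hereford, and 9.37, 9.13, 9.33 and 9.37 in Wagyu x, against 8.89 to 9.58 (median 9.08) over the 24 pasture arrays. The Angus supplement arrays lay near the pasture median, and the high values came from Hereford and Wagyu x. The mean was 9.27 with supplement and 9.10 on pasture, a difference of 0.18 ± 0.055, or 1.13-fold (limma, adjusted p = 0.0303). Of the 25 isoform probes this was 1 past the threshold, where 13.5% of all tested probes passed, 6.7% of all tested probes being higher with supplement and 6.84% lower. Among the 12 supplement and 12 pasture arrays that shared a scan day the TNNC1 difference was 0.20 (adjusted p = 0.0199) and 2 isoform probes passed, both of TNNC1 (10.6% of all), while with scan day as a block the difference was 0.17 (adjusted p = 0.0839) and 0 passed in limma (9.89% of all), 5 having an unadjusted p below 0.05. Each supplement group was 1 slide, and with slide as a random block (estimated correlation within a slide 0.43) the adjusted p of TNNC1 was 0.682, and 0 isoform probes and 8 of 34227 probes (0.0234%) passed. The call held in 5 of 18 other settings, with quantile normalisation at the low end (-0.0059, adjusted p = 0.962) among scaled values, and was lost without any 1 of 4 supplement arrays (Angus slide 1 position 4, Hereford slide 12 position 3, Wagyu x slide 6 positions 1 and 4), with adjusted p from 0.00896 to 0.0637 over all single-array omissions.

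The fast isoforms gave differences of the same sign that did not pass. MYH1 ran from 8.20 to 8.93 (median 8.69) with supplement and from 7.86 to 8.88 (median 8.40) on pasture, a difference of 0.20 ± 0.081 (adjusted p = 0.104). MYH2 ran from 8.11 to 9.26 (median 9.03) and from 8.54 to 9.25 (median 8.83), and its difference of 0.080 ± 0.074 (adjusted p = 0.515) had the lowest value of either set on a supplement array. MYL1 ran from 8.41 to 8.90 (median 8.69) and from 8.39 to 9.08 (median 8.57), a difference of 0.080 ± 0.052 (adjusted p = 0.332). TNNT3, the fast troponin T, was by far the most scattered: 7.84 to 8.90 (median 8.56) with supplement and 5.76 to 8.88 (median 8.14) on pasture. Its difference of 0.39 ± 0.19 (adjusted p = 0.174) became 0.13 ± 0.20 (adjusted p = 0.733) with scan day as a block, and that of MYH1 0.054 ± 0.077 (adjusted p = 0.712). All 25 probe estimates were above 0, from 0.056 to 0.39, with a median of 0.13 beside a median of 0.011 over all tested probes. The common sign depended on the scaling: of the 8 genes quantile normalisation turned MYH7 (-0.094), MYL2 (-0.093), MYH2 (-0.085), MYL1 (-0.048) and TNNC1 (-0.0059), and without scaling all but TNNT3 were below 0, on arrays whose unscaled 75th percentile had a median of 8.58 with supplement and 9.27 on pasture. With scan day as a block MYH2 stood at -0.043. Unadjusted p was below 0.05 for 6 of the 25 probes and for 9504 of the 34227.

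**Figure D1:**
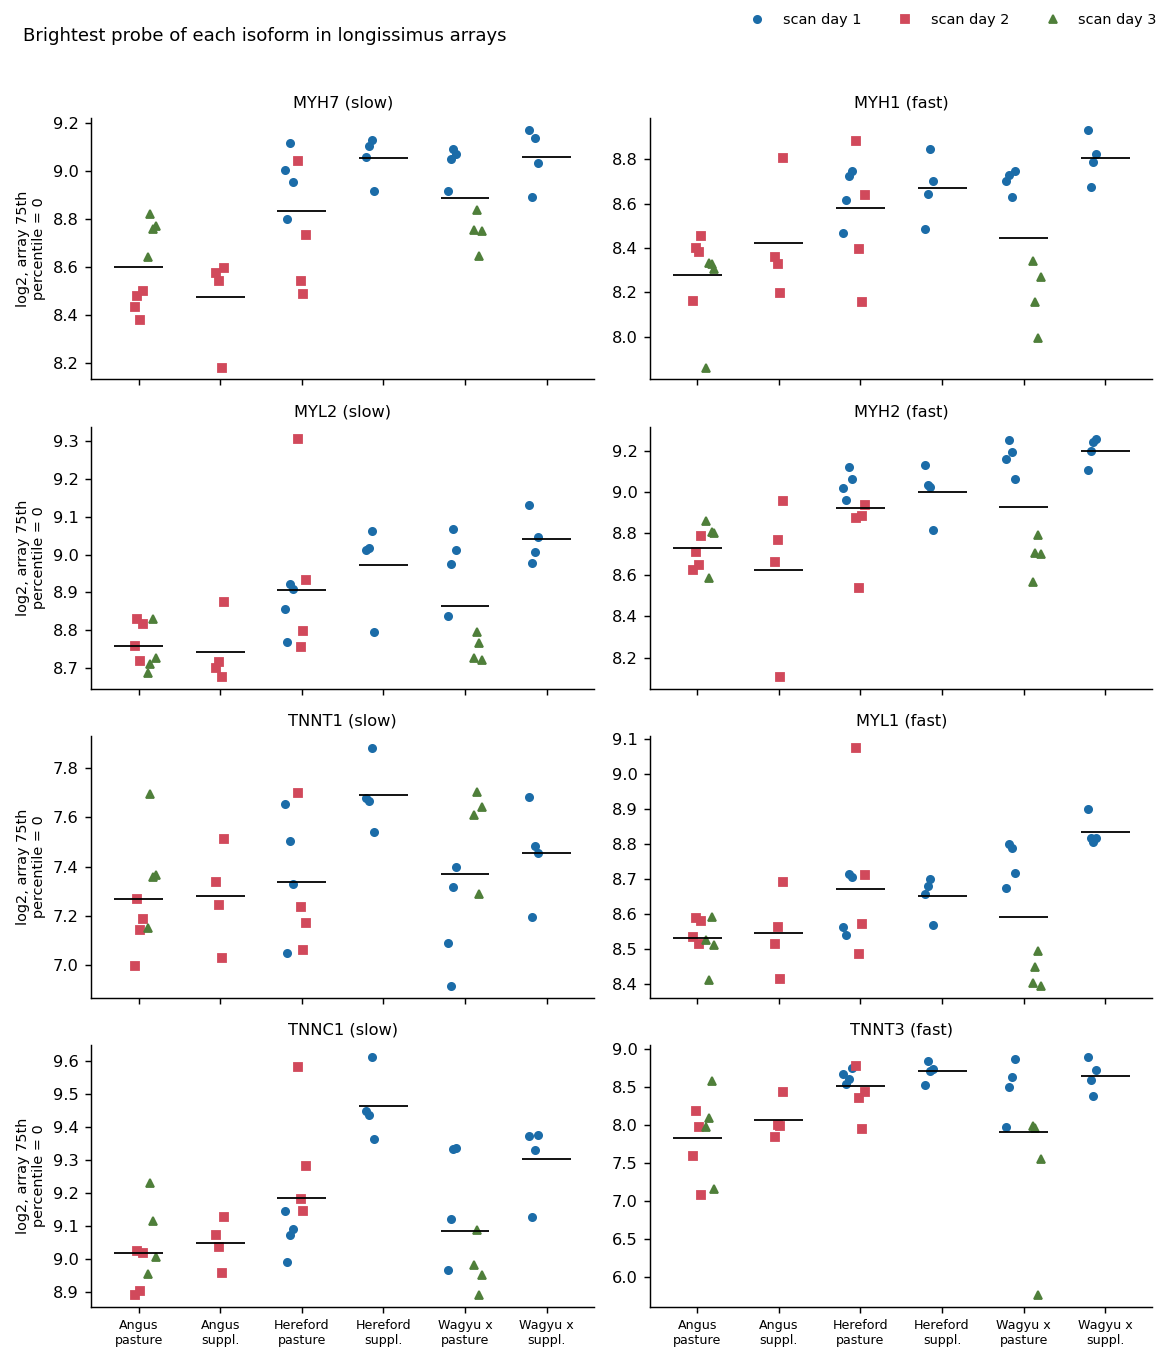
Signal of the brightest probe of each isoform on the 36 LD arrays (log2, 0 = the array's 75th percentile), by breed and diet; each symbol is 1 array, its shape gives the scan day and the black line is the group mean. The TNNC1 group mean is higher with supplement than on pasture by 0.28 in Hereford and 0.22 in Wagyu x and by 0.031 in Angus, and 1 Wagyu x pasture array has TNNT3 at 5.76.

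Among 12 further slow fibre genes 4 were higher with supplement and none was lower, with a list median of 0.096, beside 13.5% of all tested probes past the threshold and 6.7% higher. With slide as a random block, at the estimated correlation of 0.43, none of the 12 passed (lowest adjusted p = 0.406, for LMOD2). LMOD2, an actin filament nucleator of heart and slow muscle, was at a mean of 1.33 with supplement and 0.50 on pasture, a difference of 0.83 ± 0.17 (adjusted p = 0.00166). ANKRD1, a stretch-responsive titin partner, differed by 0.75 ± 0.19 (adjusted p = 0.00675). CSRP3, a Z-disc protein of slow fibres, differed by 0.76 ± 0.24 and HOMER2 by 0.36 ± 0.10. With scan day as a block, LMOD2 (0.58), ANKRD1 (0.66) and HOMER2 (0.33) passed and CSRP3 (0.57, adjusted p = 0.168) did not. Among 13 further fast fibre genes 1 passed, ACTN3, the Z-disc actinin of fast fibres, at 0.44 ± 0.12 (adjusted p = 0.0131), which fell to 0.24 (adjusted p = 0.133) with the scan day block. The median of that list was 0.22, and its share of calls was below that of all tested probes. Of 12 regulators, MEF2C, a transcription factor that drives slow fibre genes, was higher by 0.70 ± 0.16 (adjusted p = 0.00321) and by 0.53 (adjusted p = 0.0424) with the block. HDAC5, a repressor of MEF2 factors, was higher by 0.43 ± 0.13, and EYA1, a co-activator of fast genes, was lower at -0.39 ± 0.12, and neither passed with the block. In all 2 of the 12 regulators passed with it, MEF2C among them, beside 9.89% of all tested probes. With slide as a random block none of the fast genes (lowest adjusted p = 0.473) or of the regulators (0.515, for MEF2C) passed.

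Markers of other cells differed between the diet groups too, and slaughter could not be separated from feeding here either. Of the 10 adipocyte markers 6 were lower with supplement, beside 6.84% of all tested probes, with a list median of -0.68. PLIN1, the lipid droplet coat protein, stood at -1.58 ± 0.35 (limma, adjusted p = 0.00302). Their summed level was 3.05 to 4.36 on supplement arrays and 3.05 to 6.75 on pasture arrays, and none of the 6 passed once scan day was in the model. The 3 endothelial markers were higher with supplement in both models, with CDH5 at 0.54 ± 0.091 (limma, adjusted p = 0.000213). Of all tested probes 6.7% were higher without scan day, and 9.89% passed in either direction with it. Of 14 myofibre genes that belong to no fibre type, 3 were higher, beside 6.7% of all tested probes: ACTA1, CKM and NEB, by 0.23, 0.20 and 0.21. None of the 14 passed with the block. With slide as a random block none of the adipocyte, endothelial or myofibre markers passed, with CDH5 at an adjusted p of 0.333. The part of these markers in the isoform differences was not tested.

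The second comparison set the 3 breeds against each other in LD, over both diets and 12 arrays a breed. MYH7 ran from 8.18 to 8.82 (median 8.56) in Angus, from 8.49 to 9.13 (median 8.98) in Hereford and from 8.65 to 9.17 (median 8.97) in Wagyu x. The Hereford and Wagyu x ranges overlapped for the most part, and the Angus range reached into the lower part of both. With diet in the model, MYH7 was higher by 0.41 ± 0.082 in Hereford than in Angus (adjusted p = 0.00156) and by 0.44 ± 0.082 in Wagyu x than in Angus (adjusted p = 0.000511), and the 3 breeds differed at an adjusted p of 0.000508. The 3 dimmer MYH7 probes passed as well, with largest breed differences of 0.74, 0.86 and 1.09.

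MYH2 was also lowest in Angus. It ran from 8.11 to 8.95 (median 8.74) in Angus, from 8.54 to 9.13 (median 8.99) in Hereford and from 8.57 to 9.26 (median 9.13) in Wagyu x, and the last was 0.39 ± 0.091 above Angus (adjusted p = 0.00241). MYH1 ran from 7.86 to 8.80 (median 8.33), from 8.16 to 8.88 (median 8.64) and from 7.99 to 8.93 (median 8.69) in the same breeds. Both other breeds stood above Angus, by 0.27 ± 0.099 in Hereford (adjusted p = 0.0498) and 0.28 ± 0.099 in Wagyu x (adjusted p = 0.0383), and the test over 3 breeds (adjusted p = 0.0399) was lost in 8 of the 36 single-array omissions. A slow and a fast heavy chain were thus both lowest in Angus. MYL2 was 0.19 ± 0.060 higher in Hereford and 0.20 ± 0.060 higher in Wagyu x than in Angus (adjusted p = 0.0279 and 0.0137). TNNC1 was 0.29 ± 0.067 higher in Hereford than in Angus (adjusted p = 0.00432), with 8.89 to 9.23 (median 9.02) in Angus and 8.99 to 9.61 (median 9.23) in Hereford, while its Wagyu x difference from Angus of 0.16 ± 0.067 did not pass (adjusted p = 0.0776). The other 2 TNNC1 probes did not pass for breed (adjusted p = 0.221 and 0.0648), nor did the mean of the 3 probes (adjusted p = 0.0658).

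Of the 8 genes, MYH7, MYL2, TNNC1, MYH1 and MYH2 passed the test over 3 breeds, and TNNT1 (adjusted p = 0.149), MYL1 (adjusted p = 0.0762) and TNNT3 (adjusted p = 0.0721) did not. Over all probes of the isoforms 15 of 25 passed, 6 of 11 slow and 9 of 14 fast, where 32.4% of all tested probes passed. With slide as a random block 0 of the 25 and 0 of 34227 probes passed (adjusted p = 0.166 for MYH7 and 0.334 for MYH2). The median of the largest breed difference was 0.35 over the isoform probes and 0.31 over all tested probes. By pair, 16 isoform probes differed between Hereford and Angus (18.9% of all tested probes did), 16 between Wagyu x and Angus (26.3%) and 0 between Wagyu x and Hereford (4.93%). For MYH7 the last difference was 0.030 ± 0.082.

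Most breed calls were lost once scan day entered the model. With scan day as a block 1 isoform probe passed, a dimmer TNNC1 probe (0.40, adjusted p = 0.0326), where 8.29% of all tested probes did, and the size of the largest breed difference changed unevenly. It was smaller for MYH7 (0.44 without and 0.18 with the block, adjusted p = 0.328), MYH2 (0.39 and 0.14, adjusted p = 0.495), MYH1 (0.28 and 0.12, adjusted p = 0.723), TNNT3 (0.66 and 0.30, adjusted p = 0.613) and, slightly, MYL1 (0.17 and 0.15, adjusted p = 0.353). For MYL2 it was 0.20 in both (adjusted p = 0.197 with the block), for TNNC1 0.29 and 0.30 (adjusted p = 0.0626) and for TNNT1 0.24 and 0.31 (adjusted p = 0.151). Within the first day, Wagyu x and Hereford, 8 arrays each, differed in 0 isoform probes (0.593% of all). Within the second, 4 Hereford and 4 Angus pasture arrays differed in 3 isoform probes, 2 of TNNC1 (0.39 and 0.43) and 1 of MYL1 (0.43), all higher in Hereford, against 23.5% of all tested probes. Within the third, 4 Wagyu x and 4 Angus pasture arrays differed in 0 isoform probes (5.66% of all). On pasture arrays alone 1 isoform probe passed (14.7% of all tested probes) and on supplement arrays alone 11 did (23% of all). Quantile normalisation left 8 of 25, a share near that of all tested probes (33.4%), with MYH7 at 0.20 (adjusted p = 0.0527). The arrays of Angus were spread over the second and the third scan day and none was scanned on the first. Breed and scan day were therefore only partly separable.

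Pasture arrays of 1 breed were also compared between scan days. Each breed had 4 pasture arrays on each of 2 days, and the sets differed in slide as well. In Angus, 6 isoform probes differed between the second and the third day (33.1% of all tested probes), and MYH7 was lower on the second at -0.30 ± 0.077 (adjusted p = 0.0195). In Hereford 9 differed between the first and the second day (24.4% of all) and in Wagyu x 12 between the first and the third (17.2% of all), where MYH7, MYH1, MYH2 and MYL1 were higher on the first by 0.29, 0.51, 0.48 and 0.31. The MYH7 probe with an LD mean of 5.39 had means of 4.34, 4.39 and 4.34 in the 3 sets of the second day (Angus pasture, Angus supplement and Hereford pasture) and of 5.72 to 6.09 in the other 6 sets. The 3 low sets came from 2 breeds and both diets. The sets of arrays also differed in adipocyte signal: the summed markers had a median of 6.19 and 5.50 in the 2 Angus pasture sets and of 6.02 in the Wagyu x pasture set of the third day, and of 3.54 to 3.75 in the other 6. Scan day, slide and the slaughter that the labels do not mark cannot be told apart here.

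**Figure D2:**
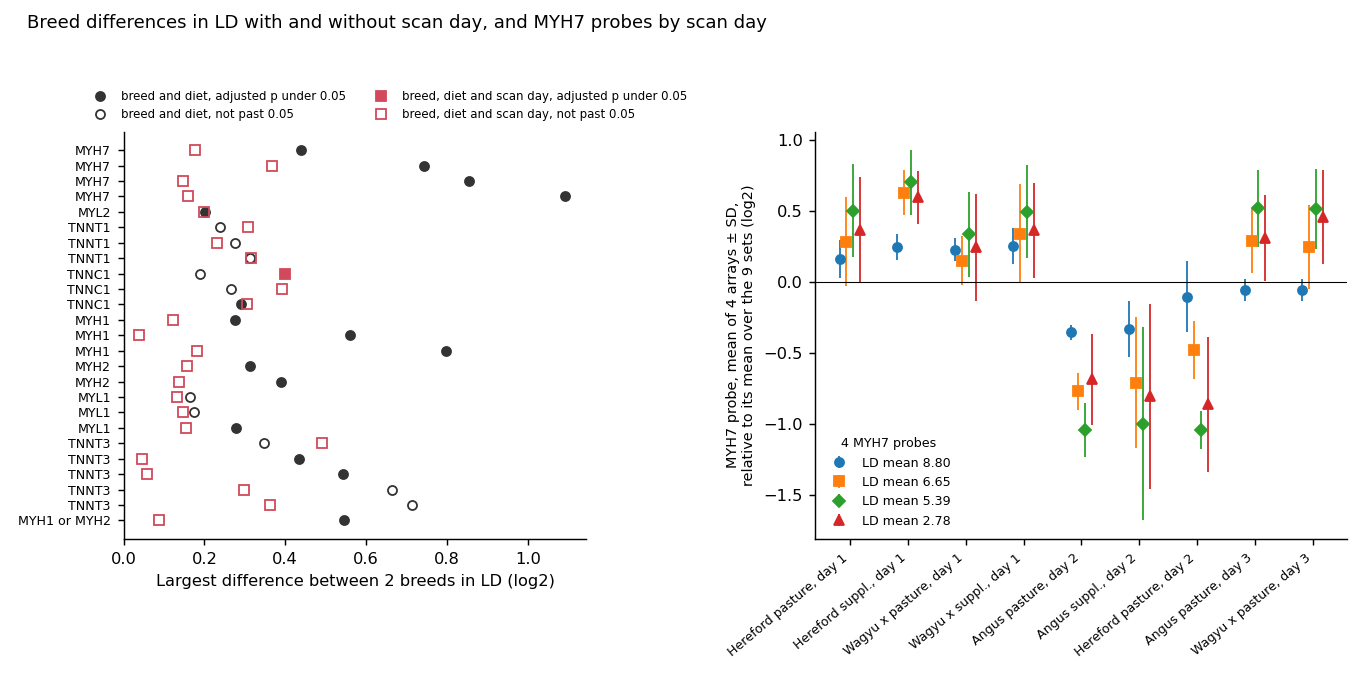
Left, the largest difference between 2 breeds in LD (log2) for the 25 isoform probes, from a model of breed and diet (circles) and from one that adds scan day (squares), filled where the adjusted p was under 0.05; right, the 4 MYH7 probes as mean ± SD of 4 arrays in each set of breed, diet and scan day, relative to the probe's mean over the 9 sets. With scan day 1 square is filled, and all 4 MYH7 probes lie below 0 in the 3 sets of the second day.

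Of other fibre genes, 4 of 12 further slow genes passed between breeds, a share near the 32.4% of all tested probes (LMOD2 1.01, ANKRD1 0.71, HOMER2 0.40 and SLN 0.37 as the largest breed difference) and 9 of 13 further fast genes did, led by SRL (1.22) and CASQ1 (1.16), both calcium-binding proteins of the sarcoplasmic reticulum, by ATP2A1 (0.85), its calcium pump in fast fibres, by MYBPC2 (0.73), the fast myosin-binding protein C, and by PYGM (0.67), the muscle glycogen phosphorylase. With scan day in the model 0 of the 12 and 0 of the 13 passed, where 8.29% of all tested probes did. Of 12 regulators 4 passed, MEF2C, MYOG, EYA1 and HDAC5, with differences of 0.51 to 0.73, again a share near that of all tested probes, and 1 of the 12 passed with scan day. Among myofibre genes of no fibre type 12 of 14 passed without scan day and 1 with it, and among the adipocyte markers 5 of 10 and 1 of 10. Of the 3 endothelial markers 2 passed without scan day and 2 with it. With slide as a random block no gene of these lists passed.

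A different response to diet in the 3 breeds was tested as an interaction. It passed for 16.2% of all tested probes and for 0 of the 25 isoform probes, of which 3 had an unadjusted p below 0.05 in limma, against 10926 of all tested probes. The lowest adjusted p was 0.0553, for a dimmer MYH7 probe. Leaving out 1 of 8 arrays brought 1 to 3 isoform probes past the threshold (Angus supplement slide 1 position 4, Angus pasture slide 2 positions 1 to 4, Hereford pasture slide 13 positions 2 and 4 and slide 14 position 4). The supplement arrays of MYH7 read 8.58, 8.54, 8.18 and 8.59 in Angus, 9.06, 9.10, 9.13 and 8.92 in Hereford, and 9.17, 8.89, 9.14 and 9.03 in Wagyu x. Every Angus value was below every value of the other 2 breeds, and each of these groups was 1 slide.

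The third comparison set IMF against LD on pasture. MYH7 ran from 5.71 to 8.22 (median 7.45) on the 12 IMF arrays and from 8.38 to 9.12 (median 8.76) on the 24 LD arrays, with no overlap. The mean was 7.13 in IMF and 8.77 in LD, a difference of -1.64 ± 0.18, or 3.12-fold lower (limma, adjusted p = 6.77e-10). MYL2 ran from 6.85 to 8.50 (median 8.17) against 8.69 to 9.31 (median 8.81) and differed by -0.97 ± 0.12. TNNT1 ran from 3.71 to 6.35 (median 5.83) against 6.92 to 7.70 (median 7.30), a difference of -1.96 ± 0.20. TNNC1 ran from 6.40 to 8.38 (median 7.90) against 8.89 to 9.58 (median 9.08), a difference of -1.54 ± 0.16. For each of the 4 slow isoforms the highest IMF array lay below the lowest LD array.

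MYH2 and MYL1 did not overlap between the tissues either. MYH2 ran from 6.23 to 8.27 (median 7.64) in IMF and from 8.54 to 9.25 (median 8.83) in LD, a difference of -1.37 ± 0.15. MYL1 ran from 7.25 to 8.34 (median 8.06) against 8.39 to 9.08 (median 8.57), and its -0.68 ± 0.087 (adjusted p = 1.51e-08) was the smallest drop of the 25 probes. MYH1 overlapped through 1 array: 11 of 12 IMF arrays were below the lowest LD array at 7.86, and the difference was -1.39 ± 0.15. TNNT3 ran from 4.45 to 7.53 (median 6.19) against 5.76 to 8.88 (median 8.14), and the LD array at 5.76, from Wagyu x, left 5 of 12 IMF arrays below the LD range, with a difference of -2.005 ± 0.25.

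All 25 isoform probes were lower in IMF, from -0.68 to -2.25 with a median of -1.92, where 77.1% of all tested probes differed, 40.3% of all being lower and 36.8% higher, and the median of all probes was -0.045. The ranges did not overlap for 17 of the 25 probes, beside 19.5% of all tested probes. Scan day did not end these calls: with it as a block 25 of 25 passed (74.1% of all). On the 16 Angus and Wagyu x arrays of the third day 25 of 25 passed in limma (73.8% of all), with MYH7 at -1.63 (adjusted p = 0.000336). No Hereford LD array was scanned on that day, so Hereford was left out of this fit. The scaling mattered for the light chains. With quantile normalisation MYL1 stood at 0.12 and MYL2 at -0.17 (adjusted p = 0.13), and in the series' value table without scaling they stood at 0.022 and -0.26 (adjusted p = 0.082). Under each of these 22 of 25 probes passed, beside 78% of all tested probes with quantile normalisation and 75.6% without scaling.

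Among other muscle genes, all 12 further slow genes were lower in IMF (list median -2.05), as were 12 of 13 further fast genes (list median -2.16). The exception was PVALB, a calcium buffer of fast fibres that other cells also express, which was higher by 2.29 ± 0.33. All 14 myofibre genes of no fibre type were lower (list median -1.74), and 10 of 12 regulators were lower (list median -1.39). Of the 3 developmental myosins MYH3, the embryonic heavy chain, was lower at -2.09, MYL4, the embryonic and atrial light chain, was higher at 1.07, and MYH8 did not pass. The 10 adipocyte markers were all higher in IMF (list median 3.64), as were 4 of 5 smooth muscle and all 3 endothelial markers.

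Within IMF the isoforms were low on the same arrays. MYH7 read 6.15, 7.77, 7.73 and 7.68 in Angus, 6.16, 7.40, 7.18 and 7.91 in Hereford, and 5.71, 8.22, 7.50 and 6.17 in Wagyu x. MYH1 read 6.32, 7.70, 7.82 and 8.08, then 5.79, 7.30, 6.84 and 7.79, then 6.24, 7.08, 7.04 and 6.54 on the same arrays. The low values of both lay on 4 arrays, the first of each breed and the last of Wagyu x. TNNT1 showed the same 4 at 4.28, 4.39, 3.71 and 4.31, with the other 8 between 5.45 and 6.35. Myofibre genes of no fibre type summed to 10.3, 9.88, 9.83 and 10.2 on these 4 arrays and to 10.65 to 11.55 on the other 8. The adipocyte markers summed to 9.37, 9.18, 9.57 and 9.30 on the 4 and to 7.52 to 9.06 on the other 8. These 4 arrays were picked for their low values, so the sums are a description. All IMF arrays were scanned on 1 day, and each of their 3 slides held at least 2 breeds.

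No isoform probe passed a test for breed in IMF. MYH7 had a largest breed difference of 0.43 (adjusted p = 0.872), MYH1 of 0.76 and TNNT3 of 1.26 (adjusted p = 0.492), and the isoform median of 0.53 stood beside 0.35 over all tested probes. These differences moved with single arrays: over the omissions of 1 IMF array MYH7 ran from 0.17 (without Wagyu x slide 8 position 2) to 0.87 (without Wagyu x slide 8 position 3), MYH1 from 0.56 to 1.14 (without Angus slide 8 position 1) and TNNT3 from 0.92 to 1.80, and none passed. By limma 0 of 25 passed and 0 of 25 had an unadjusted p below 0.05, where 0.0526% of all tested probes passed and 4757 had an unadjusted p below 0.05. By pair 0 isoform probes differed between Hereford and Angus (0.0234% of all), between Wagyu x and Angus (0%) or between Wagyu x and Hereford (0.675%). The design had little power here: of 100 simulated probes with a breed difference of 1, 3% were recovered.

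The drop from LD to IMF depended on which probe of a gene was read, and so did the spread within LD. The brightest MYH7 probe had a residual SD of 0.167 and a range of 0.99 over the LD arrays, while the probe with an LD mean of 5.39 had 0.605 and 2.87. For MYH1 the residual SD was 0.209 for the brightest probe and 0.409 and 0.401 for the others, and for TNNC1 0.132 against 0.197 and 0.204. The IMF minus LD difference of MYL1 was -0.68 and -0.75 for 2 probes and -1.46 for the one between them in brightness, and that of MYH7 was -1.64 for the brightest and -2.02 to -2.11 for the others. MYH2 was alike in its 2 probes, at -1.37 and -1.38. Within groups the residual correlation between probes of 1 gene was 0.95 to 0.96 for TNNT1 and 0.73 to 0.97 for MYH7, and 0.32 to 0.86 for MYH1. TNNT3, a gene with many splice forms, had the widest range, from -0.40 to 0.99 over its 5 probes.

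**Figure D3:**
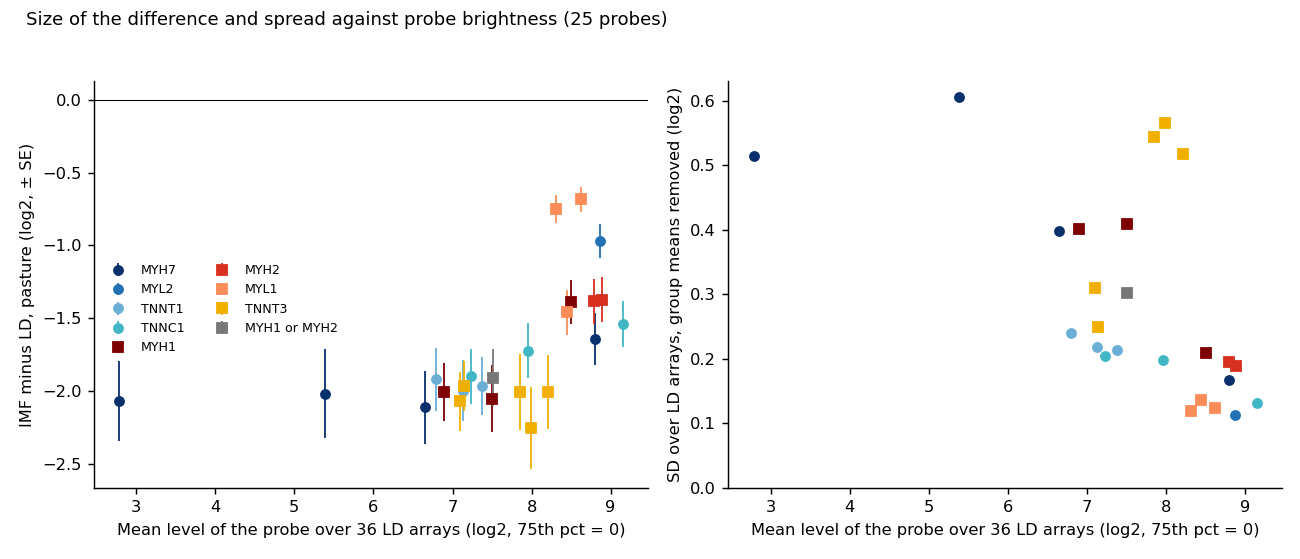
Each point is 1 of the 25 isoform probes, placed by its mean level over LD arrays (log2, 0 = the array's 75th percentile); left, the IMF minus LD difference on pasture ± SE, and right, the residual SD over the 36 LD arrays after breed and diet. Probes with LD means above 8 include the smallest drop, -0.68 for MYL1, and the SD of MYH7 rises from 0.167 at its brightest probe to 0.605.

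Whether slow and fast isoforms moved together was examined over the 36 LD arrays, with the mean of each breed and diet group removed. The arrays share the scaling and the scan day, which both enter such correlations. Over the 28 pairs of the 8 genes, Pearson's r ran from -0.12 to 0.93 with a median of 0.51, and 21 pairs passed a permutation test with Benjamini-Hochberg adjustment, all with r above 0. The pairs within the slow set had a median r of 0.51 (5 of 6 passed), those within the fast set 0.54 (5 of 6) and those of 1 slow with 1 fast gene 0.49 (11 of 16). The tightest pair joined a slow and a fast light chain, MYL2 and MYL1, at r = 0.93 and Spearman's rho = 0.91, with adjusted permutation p = 9.3e-05 for r, from the smallest p that 100000 permutations can give. Without the 2 arrays farthest from the MYL2 median r was 0.88. TNNT1 had r from -0.12 to 0.13 with the fast genes and no pair passed, but with scan day means removed as well it had r = 0.60 with MYH1, 0.46 with TNNT3 and 0.42 with MYL1, which all passed, and 0.13 with MYH2, which did not.

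The sorting of pairs changed with the processing. With the means of breed, diet and scan day removed, 21 pairs passed again, and the median r was 0.80 within the slow set, 0.32 within the fast set and 0.47 between them. With the dimmest fully measured probe of each gene 9 pairs passed, 3 of 6 slow, 4 of 6 fast and 2 of 16 mixed, and MYL2 with MYL1 stood at r = 0.90, where only the MYL1 probe was another, since MYL2 has 1 tested probe. MYH7 with TNNT1 (r = 0.76) and MYH2 with TNNT3 (r = 0.77) led the pairs within a set under that choice.

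**Figure D4:**
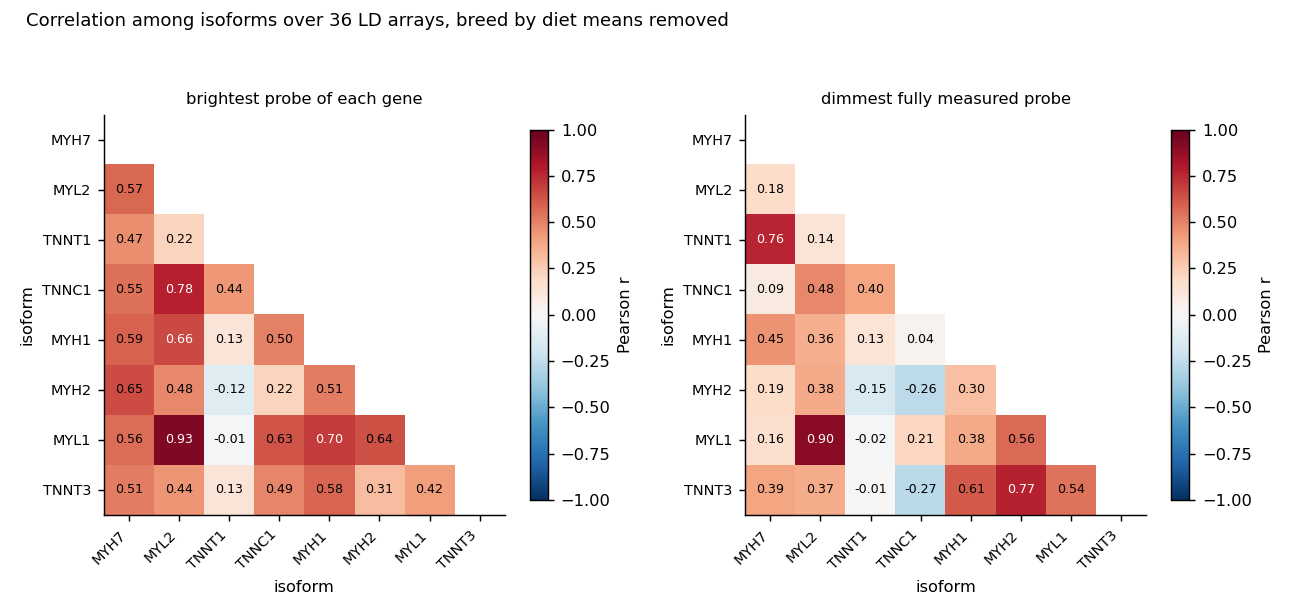
Pearson's r between isoforms over 36 LD arrays after removal of the breed by diet means, with the brightest probe of each gene (left) and with the dimmest fully measured probe (right); slow genes come first on both axes. On the left slow and fast pairs have like r (medians 0.51, 0.54 and, mixed, 0.49), and on the right 9 of 28 pairs passed in place of 21.

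Among 9011 other genes measured over the same 36 arrays, each heavy chain was given the 5 genes with the highest correlation to it after removal of breed and diet means. MYH2 had ACTA1, the skeletal actin (r = 0.88), LDB3, a Z-disc protein (0.87), SIGLEC15 (0.86), MYH13, another fast heavy chain that may share probe sequence with it (0.82), and BIN1, a shaper of the muscle membrane tubules (0.82). MYH1 had TPM1, a tropomyosin of fast fibres (0.82), PLEKHB1 (0.80), GAPDH and ALDOA, both glycolytic enzymes (0.79 each), and CIB3 (0.79). For MYH7 the 5 were MYO7B, ABCF3, CCM2, NOB1 and CKB, all at 0.79, and with scan day means removed too they had 0.80, 0.63, 0.67, 0.62 and 0.57. These are descriptions over arrays that share the same scaling.

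In the remaining fat the isoforms were far lower. Against subcutaneous fat all 25 probes were higher in IMF, where 65.4% of all tested probes differed, 32% of all being higher and 33.4% lower in IMF. A size of the difference was measured for the 5 probes that were well above background on all 12 subcutaneous arrays, among them MYH7 at 9.11 ± 0.26 and TNNC1 at 11.59 ± 0.36, and the other 20 were below that on some or all of these arrays. MYH7 stood well above background on all 60 fat arrays (subcutaneous median -1.99), while 2 of its dimmer probes were not well above background on any subcutaneous array, so that IMF exceeded it by at least 108-fold on 1 and at least 677-fold on the other. For a dimmer MYH1 probe the bound was at least 2789-fold and for a dimmer MYH2 probe at least 11067-fold, each set by the lowest signal well above background on each array. The brightest probes of MYL2 and MYH1 were well above background on 7 subcutaneous arrays each, and those of TNNT1 and MYH2 on 1 each. Of the subcutaneous arrays 1 shared the scan day of IMF, so scan day and depot were nearly inseparable in this contrast.

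**Figure D5:**
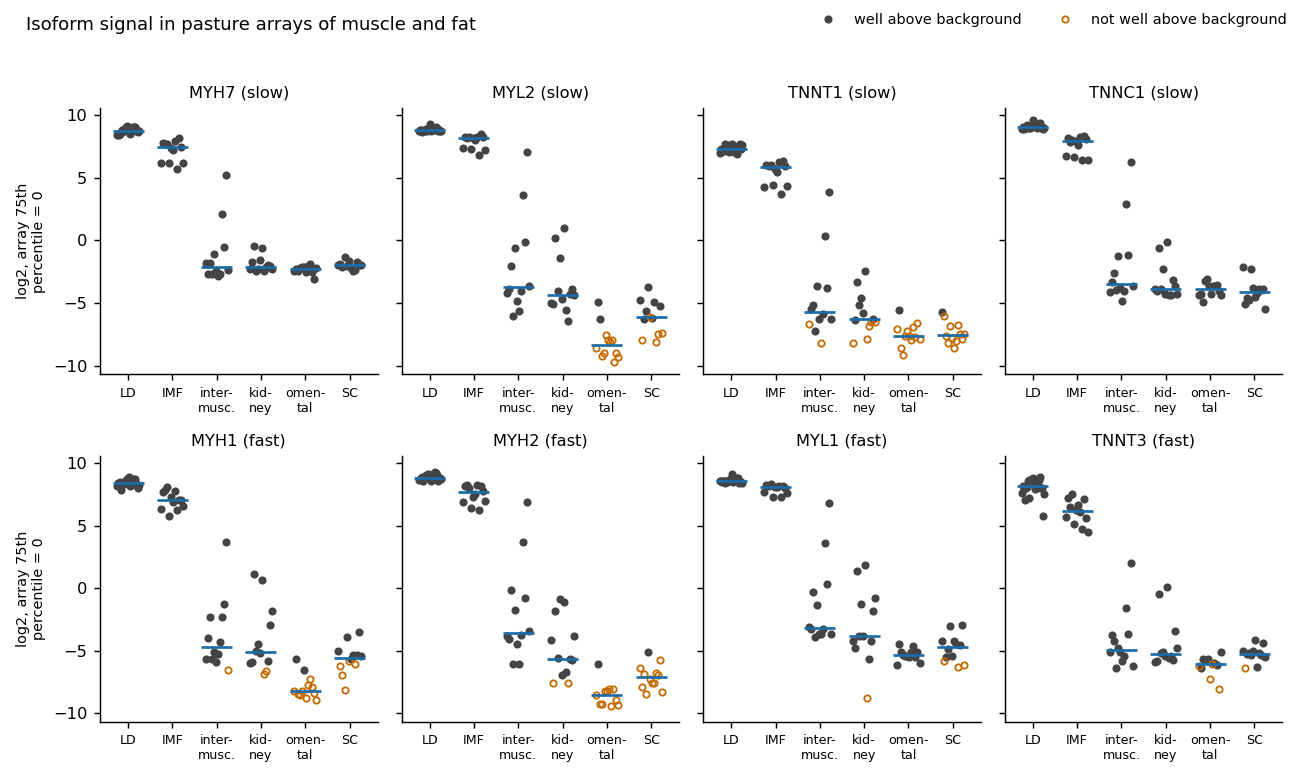
Signal of the brightest probe of each isoform on the pasture arrays of LD and the 5 fat depots (log2, 0 = the array's 75th percentile); filled points were well above background, open points were not, and the blue line is the depot median. IMF sits just below LD and well above the other depots, and 1 intermuscular array reaches 5.24 for MYH7 and 7.10 for MYL2.

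Most arrays of the other depots were low as well. Depot medians for MYH7 were -2.09 in intermuscular, -2.08 in kidney and -2.25 in omental fat, which lay close to each other and to subcutaneous fat. MYH2 had medians of -3.58 in intermuscular and -5.61 in kidney fat, where it was well above background on 12 and 10 of 12 arrays, and in omental fat it was well above background on 1 array. An intermuscular Wagyu x array, at slide 5 position 2, had the highest value of its depot for all 8 genes, with MYH7 at 5.24, MYL2 at 7.10, MYL1 at 6.81, MYH2 at 6.87, TNNC1 at 6.30, TNNT1 at 3.88, MYH1 at 3.67 and TNNT3 at 2.05. Slow and fast isoforms were thus high on the same array. Another intermuscular Wagyu x array, at slide 3 position 2, was second in its depot for all of these genes but MYH1, with MYH7 at 2.15, MYL2 at 3.65, MYL1 at 3.64 and MYH2 at 3.67. In omental fat MYL2 was well above background on 2 of 12 arrays and TNNT1 on 1.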

How the data were processed

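Agilent Feature Extraction intensity values, 1 Cy3 array per sample, were deposited by the authors as scanner files of processed signal with local background subtracted, each with background, outlier and saturation flags. The deposited series table holds log2 values; 99.9% of its 3280211 entries lay within 0.001 of log2 of median signal minus median background, with a floor of 1, so the table is neither scaled nor centred. Here log2 processed signal was taken relative to each array's 75th percentile, flagged outlier spots were dropped and spots of 1 probe averaged. The 34227 probes of both sources were tested, of 43653 non-control probes; 8 isoform probes in the scanner files but not in the table were left out. Where an outlier was dropped, a probe was fitted on the remaining arrays. Symbols came from RefSeq annotation of assembly ARS-UCD2.0 through probe accessions and from the study's probe tables, and no coordinates are given. Linear models were fitted with limma 3.58.1 in R 4.3.3 with Benjamini-Hochberg adjustment over all tested probes at 0.05; figures were drawn with matplotlib 3.10.9. Diet and breed were fitted together on LD arrays, the interaction as an added term, IMF against LD with breed on pasture arrays, and IMF against subcutaneous fat with breed. Scripts were tested on simulated data with 200 of 34227 probes changed: of 100 with a change of 1 (log2), 94% were recovered for diet, 92% for breeds in LD, 28% for the interaction, 98% for IMF against LD and 94% for IMF against subcutaneous fat. The simulated arrays were independent and had no slide or scan day effect, so these shares do not give the recovery where arrays of a slide correlate. Correlations used 28 pairs, those of the 8 genes with a probe. Named genes were the listed isoforms at their brightest probe, the members of the fixed lists that passed (exceptions to a list's direction were named after their values were seen), and the 5 likeliest genes of each heavy chain. Isoforms and lists were chosen with earlier results of these data known. The number of arrays limits the precision. Alternatives covered normalisation, centring, background correction, the series table, probe filters, the methods' own test, slide, scan day, replicate number, single arrays and probe choice; comparisons within scan days, the dimmest probe of a gene and slide as a fixed block were added after seeing the data.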

Additional observations from a re-analysis of the deposited data

Results flagged for a closer look

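In groups of 4 to 10 arrays, 23 of 166 combinations of gene and group (13.9%) had 1 array whose gap to the next exceeded Dixon's critical value, where chance gives about 1 in 20. The genes share arrays, so the combinations are not independent. All values are log2 levels of the brightest probe. In IMF, 1 Angus array was low for MYH7 (6.15), MYL2 (7.41) and TNNT1 (4.28), and 1 Hereford array for MYL1 (7.25). In LD, TNNT3 was low on 1 Wagyu x pasture array (5.76), MYH7 on 1 Angus supplement array (8.18), MYL1 on 1 Angus pasture array (8.41) and MYH2 on 1 Hereford pasture array (8.54). Hereford pasture also had a high array for MYL2 (9.31) and MYL1 (9.08), and the Wagyu x supplement group a separate one for MYL1 (8.90). In kidney fat, TNNC1 (-0.64), MYH1 (1.13), MYL1 (1.34) and TNNT3 (-0.45) each had an array apart in Angus and TNNT3 (0.11) in Hereford. In intermuscular fat MYL1 had one in Hereford (-1.34). In omental fat MYH1 in Angus (-5.65) and MYH2 in Hereford (-9.28) were set apart. In subcutaneous fat TNNC1 in Angus (-2.16) and in Wagyu x (-5.47), MYH2 in Hereford (-5.09) and TNNT3 in Angus (-6.35) were. Some of these gaps fall among values not well above background. MYH2 was well above it on 1 of 12 omental and 1 of 12 subcutaneous arrays, and MYH1 on 2 of 12 omental arrays.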

How the results depend on the processing

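Supplement minus pasture passed for 4634 probes and 1 isoform probe. Within single breeds 1788 (Angus), 2283 (Hereford) and 1190 (Wagyu x) probes passed, and 2463 did without a breed term, 1412 with normexp, 2413 by the methods' equal-variance test and 8 with slide as a random block. Isoform probes numbered 0 in each of these, with quantile normalisation, with scan day as a block and on the series table, scaled or not, and 2 on shared scan days. Signs turned in Angus alone for MYH7 (-0.13), MYL2 (-0.018) and MYH2 (-0.11), and in Hereford alone for MYL1 (-0.019). They turned with quantile normalisation for MYH7 (-0.094), MYL2 (-0.093), TNNC1 (-0.0059), MYH2 (-0.085) and MYL1 (-0.048), and on the unscaled table for MYH7 (-0.22), MYL2 (-0.21), TNNT1 (-0.16), TNNC1 (-0.16), MYH1 (-0.13), MYH2 (-0.22) and MYL1 (-0.21). MYH2 turned on shared scan days (-0.026) and with the scan day block (-0.043). Breeds in LD (11104 probes, 15 of isoforms) gave 203 and 0 within the first scan day, 3 isoform probes within the second, 1938 and 0 within the third, 5044 and 1 on pasture alone, 2839 and 1 with scan day, 0 and 0 with slide as a random block, 8 isoform probes with quantile normalisation, 18507 probes with normexp, 21961 on the unscaled table and 7160 by the methods' test. The interaction (5539 probes) gave 1149 with normexp, 3331 on shared days, 2970 with scan day, 850 on the unscaled table and 0 with slide as a random block. IMF minus LD of MYL1 turned to 0.12 with quantile normalisation and 0.022 on the unscaled table. Breeds in IMF (18 probes) gave 9 over all probes, 45 with normexp, 6 on the unscaled table, 4 by the methods' test, and 22 with slide as a random and 0 as a fixed block. IMF minus subcutaneous fat (22375 probes) gave 14235 within Angus, 13329 within Hereford, 11385 within Wagyu x and 5757 with scan day. Correlated pairs fell from 21 to 9 with the dimmest probes. The cause of these shifts was not tested.

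Without single arrays, diet gave 3496 to 5156 probes and 0 to 2 of isoforms, breeds in LD 8509 to 11670 and 11 to 18, the interaction 3583 to 6383 and 0 to 3, IMF minus LD 25842 to 26488 and 25, breeds in IMF 0 to 363 and 0, and IMF minus subcutaneous fat 21698 to 22798 and 25. Replicate numbers followed slide position and were not taken as pairs. Between LD arrays the mean residual r was 0.018 for equal numbers and -0.0059 for others, which cannot show whether numbers tie tissues of 1 steer. With the replicate number as a block, breeds in IMF gave 0 probes, diet 4553 and breeds in LD 10830, with isoform calls of 1 and 15. Settings not named kept each count of calls within 1.5 times. Dim probes of subcutaneous and omental fat limit those contrasts to bounds.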

Other observations

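In kidney fat the isoforms were raised on few arrays. The highest MYH7 and MYH1 values fell on an Angus array at slide 19 position 2, with MYH1 at 1.13 against a depot median of -5.13. The highest MYL2, TNNT1, TNNC1, MYL1 and TNNT3 values fell on a Hereford array at slide 22 position 3, with TNNT3 at 0.11 against a depot median of -5.27. All of these lay below every IMF array for the same gene.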
